A study of Mus musculus with 6 samples.

Results

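Oxidative phosphorylation subunits were taken as the protein-coding genes for the structural subunits of complexes I to V, namely all genes with an mt- symbol and the nuclear genes with symbols starting Ndufa, Ndufb, Ndufc, Ndufs or Ndufv, Sdha to Sdhd, Uqcr, Cyc1, Cox4i to Cox8 and Atp5, with assembly factors dropped. This gave 99 of 52636 genes in the table, 86 encoded in the nucleus and 13 in the mitochondrial genome. RNA of thoracic aortas was sequenced in 6 libraries from mice of 12 weeks of age, 4 from untreated C57BL/6J mice (WT-1 to WT-4) and 2 from Tgfbr1/2iSMCKO mice (labelled KO). The KO mice carried loxP-flanked Tgfbr1 and Tgfbr2, the mT/mG reporter and Myh11-CreERT2, a Cre recombinase that tamoxifen activates and that the smooth muscle cell (SMC) promoter of Myh11 drives. Tamoxifen was injected at 2 mg daily over 5 days, starting at 11 weeks. The WT mice carried none of these alleles and had neither tamoxifen nor its vehicle, so genotype, reporter, Cre and drug cannot be told apart, and no separate culture, litter or day is given, so that p-values measure the spread between these libraries. Whole thoracic aorta holds the tunica media, where the deletion is directed, together with adventitia, endothelium and any fat or other tissue left around the vessel.

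The respiratory chain oxidises NADH and succinate and pumps protons across the inner mitochondrial membrane. Complex I (NADH dehydrogenase) and complex II (succinate dehydrogenase) pass electrons to complex III (the cytochrome bc1 complex) and complex IV (cytochrome c oxidase), and complex V (ATP synthase) uses the proton gradient to make ATP. Complex II is encoded wholly in the nucleus, whereas complexes I, III, IV and V combine nuclear subunits with a few subunits that mitochondrial DNA encodes. Several subunits of complex IV exist as tissue-restricted and widely expressed isoforms, and Cox6a2, Cox7a1 and Cox8b are forms of heart and skeletal muscle that brown fat also uses.

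Total estimated counts ran from 19650983 to 28860598 per library. The targeted genes did not check the labels. Counts over whole genes also include reads outside the floxed parts and RNA of aortic cells to which the deletion is not directed, and the part of either was not tested. Tgfbr1 had normalised counts of 4510.0 ± 726 (SD, n = 4) in WT and 5780.4 and 4568 in the libraries labelled KO (DESeq2 adjusted p = 0.63). Tgfbr2 had 6240.2 ± 882 against 5784 and 5937 (DESeq2 adjusted p = 0.838). The libraries labelled KO are called KO-1 and KO-2 on that understanding. SMC markers were present throughout, with 8 genes summing to normalised counts of 883248 to 1042571 in WT, 838705 in KO-1 and 998245 in KO-2. KO-1 and KO-2 stood apart from WT and from each other in markers of other tissues. The 12 cardiac muscle markers summed to 3116 to 4510.1 in WT, 30585 in KO-1 and 4445 in KO-2, and the 9 brown adipocyte markers to 1569 to 2049 in WT, 4899 in KO-1 and 14803 in KO-2. Other marker lists had higher sums in both. The 7 macrophage markers (5 rose, 0 fell, and all 7 lay above every WT library in both) summed to 7286 to 8683 in WT, 12930.4 in KO-1 and 13942 in KO-2. The 7 endothelial markers (4 rose, 0 fell) summed to 12628 to 22547 in WT, 32120.0 in KO-1 and 30873 in KO-2. Of these 7, both libraries labelled KO lay above every WT library in 6 and below in 1. The 8 fibroblast markers (2 rose, 0 fell) summed to 114684 to 127029 in WT, 145049 in KO-1 and 167896 in KO-2. Of these 8, both lay above every WT library in 4 and below in 0. Of all genes tested, 5.71% rose and 4.69% fell. Both libraries labelled KO lay above every WT library in 17.9% of all genes and below in 16.4%. Beside these lists, the median log2 ratio of the nuclear set to the WT mean lay within the WT range in KO-1 (0.08) and above it in KO-2 (0.27). The part of these lists in the values of the nuclear set was not tested. Results below are therefore given for each of these libraries as well as for the group.

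Promoter sequences are shown for both isoform pairs in which the tissue-restricted member was called higher, Cox7a1 with its widely expressed partner Cox7a2 and Cox8b with Cox8a. Each is the stretch of 250 bases before the annotated start, 5′ to 3′ on the gene's strand, from RefSeq on GRCm38.p6, with every CG pair in capitals. The windows lie at chr7:30183921-30184170 (plus strand), chr9:79759854-79760103 (minus strand), chr7:140900447-140900696 (minus strand) and chr19:7217617-7217866 (minus strand).
Cox7a1: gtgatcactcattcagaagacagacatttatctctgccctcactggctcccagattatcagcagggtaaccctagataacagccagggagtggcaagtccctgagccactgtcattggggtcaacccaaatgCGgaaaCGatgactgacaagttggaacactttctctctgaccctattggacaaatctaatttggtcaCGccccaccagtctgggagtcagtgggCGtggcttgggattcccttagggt
Cox7a2: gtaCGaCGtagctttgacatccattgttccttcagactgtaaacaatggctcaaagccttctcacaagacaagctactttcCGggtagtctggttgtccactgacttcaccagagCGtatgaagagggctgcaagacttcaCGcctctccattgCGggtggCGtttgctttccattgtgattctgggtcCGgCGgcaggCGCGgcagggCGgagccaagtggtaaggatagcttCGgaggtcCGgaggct
Cox8b: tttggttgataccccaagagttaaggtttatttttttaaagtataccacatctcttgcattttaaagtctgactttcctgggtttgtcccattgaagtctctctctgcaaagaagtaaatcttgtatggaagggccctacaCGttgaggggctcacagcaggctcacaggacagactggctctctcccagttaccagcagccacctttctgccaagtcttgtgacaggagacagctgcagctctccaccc
Cox8a: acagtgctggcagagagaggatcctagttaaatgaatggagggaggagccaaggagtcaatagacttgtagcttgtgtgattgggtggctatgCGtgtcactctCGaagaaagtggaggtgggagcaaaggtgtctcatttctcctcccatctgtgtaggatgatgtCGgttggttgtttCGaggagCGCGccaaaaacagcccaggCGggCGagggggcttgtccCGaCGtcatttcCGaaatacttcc
The Cox7a1 window held 4 CG pairs and that of Cox7a2 14. That of Cox8b held 1 and that of Cox8a 11. Over 21263 windows of all protein-coding genes the median was 10 CG pairs, and over 74 windows of 69 nuclear members it was 14. Both restricted isoforms thus lay below the usual member, and Cox8b was the lowest of the member windows. Other members were low as well, with 4 in Ndufc2 and 5 in Cox7b and Uqcr10. In all, 18 of the 74 member windows lay below the median of all windows, and Cox6a2 had no window.

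Words of known regulators were searched on both strands of the windows of 250 bases before to 50 bases after the start. GCGCATGCG, a word of NRF1, an activator of respiratory chain genes, was in 10.8% of member windows (Atp5g2, Atp5k, Atp5l, Cox6a1, Ndufa11, Ndufa8, Uqcr11, Uqcrc1) and 2.35% of all windows. AAGATGGCG, a word of YY1, was in 9.46% of member windows (Atp5j, Atp5j2, Ndufa9, Ndufc1, Ndufs4, Ndufs6 and Ndufs7) and 1.83% of all. TCAAGGTCA, a word of the oestrogen-related receptors, was in 2.7% of member windows (Atp5g3 and Sdhd) and 0.334% of all. CCGGAAGT, a word of GABPA, was in 6.76% of member windows, Cox8a among them, and 5.15% of all. None of these 4 words was in the windows of Cox7a1, Cox8b or Cox7a2, which says only that those letters were not in these windows.

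Nuclear-encoded transcripts had a modestly positive median log2 fold change between the groups. By library, the KO-2 median lay above the WT range and the KO-1 median within it. Of 86 nuclear genes, 84 were tested and Cox7b2 and Cox8c, isoforms known from testis, had 0 counts in every library. At a DESeq2 adjusted p under 0.05, 9 of 84 rose (10.7%, against 5.71% of all 17070 genes tested) and 0 fell (against 4.69%), with 22 higher and 3 lower at an unadjusted p under 0.05. With edgeR's quasi-likelihood test, 4 rose (against 3.42% of all genes) and 0 fell (against 2.76%) with a filter on low counts, and 3 rose (against 2.19%) and 0 fell (against 1.46%) without one. Only Cox7a1 and Cox8b also passed a fold change of 2, which is 2 of 84 genes called in either direction beside 5.64% of all genes, 3.54% higher and 2.1% lower. The median log2 fold change was 0.14 over the nuclear set and 0.02 over all genes whose normalised counts averaged 10 or more, and 58 of 84 nuclear genes had a positive value. In bulk tissue, more RNA per cell and more cells of a type that holds the RNA cannot be told apart.

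Values above WT were seen in both libraries labelled KO, with a larger median in KO-2. In 28 of 84 nuclear genes (33.3%, against 17.9% of all genes) both lay above every WT library, and in 2, Ndufa11 and Atp5g1, both lay below (2.38%, against 16.4%). KO-1 alone lay above every WT library in 32 genes (38.1%, against 31.3% of all) and below in 9 (10.7%, against 27.7%). KO-2 alone lay above in 48 (57.1%, against 32.8%) and below in 10 (11.9%, against 32.3%). The median over the nuclear set of the log2 ratio to the WT mean was 0.08 in KO-1 and 0.27 in KO-2. WT libraries themselves ranged from -0.18 (WT-4) to 0.12 (WT-2), so the KO-1 median lay within the WT range and the KO-2 median above it. As a share of all counts, the set took 0.616%, 0.652%, 0.554% and 0.550% in WT-1 to WT-4, 0.689% in KO-1 and 0.710% in KO-2. These shares did not overlap between groups, but they are scaled by total counts, whereas the medians above use size factors. Scaling by total counts also moved the median log2 fold change of all genes up by 0.0393.

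Leaving out a library labelled KO changed these counts. Without KO-1, 18 nuclear genes rose (against 7.49% of all genes in that fit) and Atp5e, Atp5g1 and Ndufa2 fell (against 8.42%), and 7 of the 9 genes remained past the threshold. Without KO-2, Cox7a1 and Ndufs1 rose (against 3.27%) and 0 fell (against 3.75%), with 11 higher and 1 lower at an unadjusted p under 0.05. The lone library is assumed in these DESeq2 fits to vary like the WT libraries. The median log2 fold change of the set was 0.27 without KO-1 and 0.09 without KO-2, and it was positive under all 17 alternatives.

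**Figure D1:**
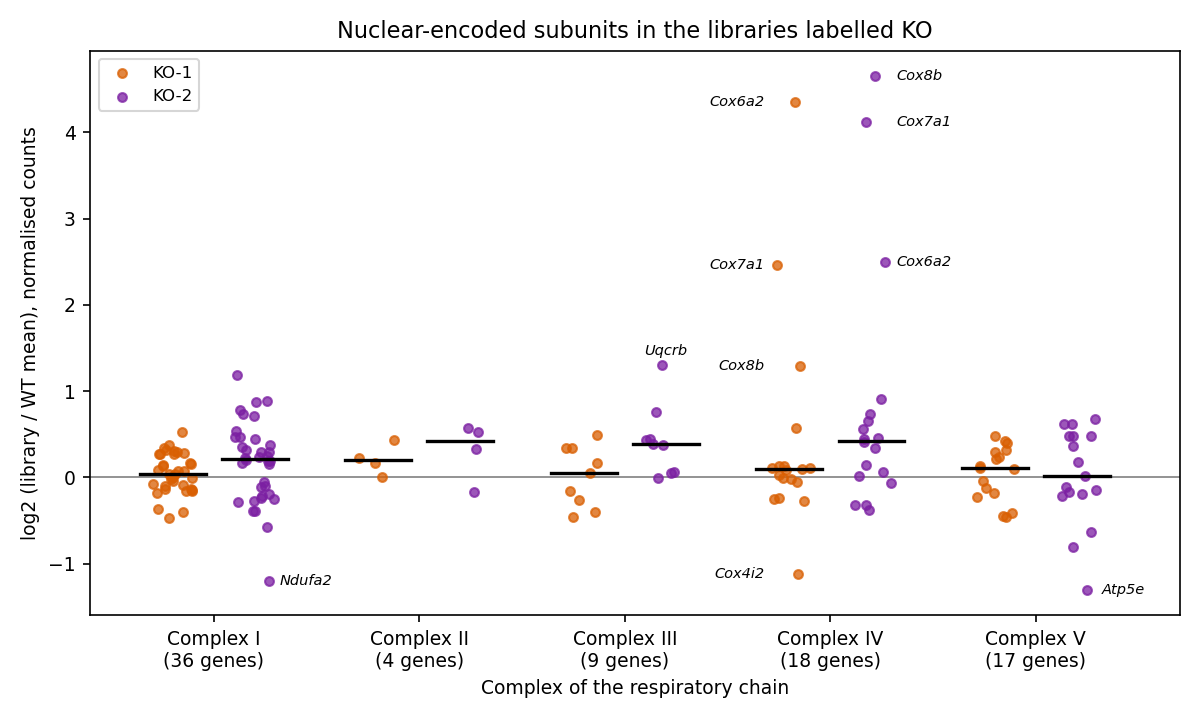
log2 ratio of normalised counts to the WT mean for the 84 nuclear-encoded subunits with counts, by complex (x axis), in the library labelled KO-1 (orange) and that labelled KO-2 (purple). Each point is 1 gene and each black line the median of a complex, and labels name genes above 1.2 or below -1. Most genes lay within 1 unit of 0, Cox6a2, Cox7a1 and Cox8b of complex IV lay far above, and complex IV had a median of 0.09 in KO-1 and 0.42 in KO-2.

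Of the 36 nuclear genes of complex I, 1 rose, and by a small amount (2.78%, against 5.71% of all genes). Ndufs1, the large iron-sulfur subunit of the electron input arm (chr1:63143596-63176833), had normalised counts of 1259.9, 1258, 1360.1 and 1408 in WT-1 to WT-4, against 1898 in KO-1 and 1829 in KO-2. Both libraries labelled KO lay above every WT library (log2 fold change 0.50 ± 0.16 (SE), DESeq2 adjusted p = 0.0242). Ndufs1 was not past the threshold without KO-1 (adjusted p = 0.0514 in the DESeq2 fit), nor without WT-2, and with edgeR it was not past it either. A total of 498 bases of its exons overlap Ino80dos and Eef1b2 on the opposite strand, and whether counting used strand is not stated. The complex had a median log2 fold change of 0.12, with medians of 0.04 in KO-1 and 0.21 in KO-2. In 10 of its genes (27.8%, against 17.9% of all genes), both libraries labelled KO were higher than every WT library.

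Members of complex I also diverged from one another in KO-2, as 3 genes chosen after their values were seen show. Ndufa12, an accessory subunit, had normalised counts of 912, 769.6, 838 and 894 in WT-1 to WT-4, against 775 in KO-1 and 1946 in KO-2. Ndufa2, another accessory subunit, had 1849, 1687, 921 and 1056 in WT-1 to WT-4, against 997 in KO-1 and 599.8 in KO-2. Ndufa11, a subunit of the membrane arm, had 1551, 1577, 1115 and 1101 in WT-1 to WT-4, against 1036 in KO-1 and 1015 in KO-2. Thus KO-2 was far above the WT range in Ndufa12 and below it in Ndufa2 and Ndufa11, while KO-1 lay within the WT range in Ndufa12 and Ndufa2. None of the 3 passed the threshold in the comparison of groups (DESeq2 adjusted p = 0.154, 0.088 and 0.302), although Ndufa2 was past it without KO-1 and without WT-3 and Ndufa12 without KO-1.

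Complex II, which also serves the tricarboxylic acid cycle, had the highest median of the complexes at 0.32 (4 genes). In 3 of its 4 genes (75%, against 17.9% of all genes), both libraries labelled KO lay above every WT library. Sdha, the flavoprotein that oxidises succinate (chr13:74322254-74350280), had normalised counts of 4092, 4364, 4185 and 4436 in WT-1 to WT-4, against 5745 in KO-1 and 6355 in KO-2. Its groups did not overlap (log2 fold change 0.50 ± 0.15 (SE), DESeq2 adjusted p = 0.0113). Without KO-2 the adjusted p was 0.0512 in the DESeq2 fit, and in edgeR the gene passed with the filter on low counts and not without it. Sdhb, the iron-sulfur subunit, had a log2 fold change of 0.36 and Sdhd, a membrane anchor, 0.28, and neither passed (DESeq2 adjusted p = 0.237 and 0.343). Sdhc, the other anchor, had a value of -0.08 (adjusted p = 0.842).

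In complex III, 2 of 9 genes rose (22.2%, against 5.71% of all genes). Uqcrb, the ubiquinone-binding subunit (chr13:66900617-66905378), had normalised counts of 1617, 1787, 2202 and 1913 in WT-1 to WT-4, against 2383 in KO-1 and 4649 in KO-2. Its rise (log2 fold change 0.90 ± 0.26 (SE), DESeq2 adjusted p = 0.00842) was mostly that of KO-2: the log2 fold change was 1.31 without KO-1 and 0.35 without KO-2 (adjusted p = 0.415 in the DESeq2 fit). Uqcrc2, a core protein (chr7:120635176-120659524), had 1764, 1907, 1943 and 1843 in WT-1 to WT-4, against 2369.7 in KO-1 and 3152 in KO-2 (log2 fold change 0.57 ± 0.18 (SE), DESeq2 adjusted p = 0.0209). Without KO-2 its log2 fold change was 0.36 (adjusted p = 0.198 in the DESeq2 fit). Both genes missed the threshold without WT-1, without WT-2 and in edgeR. Exons of Uqcrc2 share 504 bases with Pdzd9 on the opposite strand. Cyc1, the haem-bearing cytochrome c1, had a log2 fold change of 0.02 (adjusted p = 0.974 by DESeq2), and Uqcrfs1, the Rieske iron-sulfur protein, 0.43 (adjusted p = 0.111).

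Complex IV held the largest changes of the nuclear set. Cox7a1 (chr7:30184144-30186078), a muscle form of a small subunit, had normalised counts of 37.3, 28.7, 20.97 and 26.1 in WT-1 to WT-4, against 159 in KO-1 and 501 in KO-2. Every library labelled KO lay far above WT and KO-2 above KO-1 (log2 fold change 3.54 ± 0.47 (SE), DESeq2 adjusted p = 7.32e-12). Cox7a1 passed the threshold under all 17 alternatives, with a log2 fold change of 4.15 without KO-1 and 2.501 without KO-2. Cox8b (chr7:140898945-140900446), a muscle form of another small subunit, had 67.00, 56.6, 49.9 and 21.9 in WT-1 to WT-4, against 119.9 in KO-1 and 1238 in KO-2. KO-1 was above the WT range by a little and KO-2 by a wide margin (log2 fold change 3.80 ± 0.9997 (SE), DESeq2 adjusted p = 0.00321). The log2 fold change of Cox8b was 4.67 without KO-1 and 1.31 without KO-2 (adjusted p = 0.249 in the DESeq2 fit), so the call rested on KO-2.

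Cox6a2 (chr7:128205435-128206387), the third of the muscle forms, had normalised counts of 16.5, 0, 16.98 and 13.6 in WT-1 to WT-4, against 249 in KO-1 and 68.8 in KO-2. Here the order of the libraries labelled KO was the opposite, with KO-1 above KO-2, and WT-2 had 0 counts. The comparison missed the threshold in DESeq2 (log2 fold change 3.76 ± 1.43 (SE), DESeq2 adjusted p = 0.07) and passed it in edgeR (adjusted p = 0.0446 with the filter and 0.0319 without) and in DESeq2 without WT-2 (adjusted p = 1.05e-05). A stretch of 70 bases of its exons overlaps Itgad on the opposite strand. Cox5a, a widely expressed nuclear-encoded subunit (chr9:57521274-57532426), had 891, 931, 793 and 942 in WT-1 to WT-4, against 1317 in KO-1 and 1216 in KO-2. Both libraries labelled KO lay above WT (log2 fold change 0.51 ± 0.18 (SE), DESeq2 adjusted p = 0.0382), and the gene lost its call without any of WT-1, WT-2, WT-3, KO-1 or KO-2 and in edgeR.

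Within each isoform pair, counts per exon length show which form made up the transcript pool. Cox7a1 made up 2.33% to 3.33% of the Cox7a1 and Cox7a2 pair in WT, 12.6% in KO-1 and 38.0% in KO-2. Cox8b made up 1.73% to 3.48% of its pair with Cox8a in WT, 7.91% in KO-1 and 35.6% in KO-2. Cox6a2 made up at most 0.478% of its pair with Cox6a1 in WT, 7.74% in KO-1 and 1.49% in KO-2. The muscle forms were thus a minor part of the pool in every WT library, and their largest shares were those of Cox7a1 and Cox8b in KO-2.

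None of the widely expressed partners of these 3 forms passed the test. Cox7a2 had normalised counts of 1910.1, 2032, 1549.8 and 1702 in WT-1 to WT-4, against 1934 in KO-1 and 1443 in KO-2 (log2 fold change -0.09 ± 0.20 (SE), DESeq2 adjusted p = 0.857). Cox8a had 3195, 3307, 2712 and 2147 in WT-1 to WT-4, against 2399 in KO-1 and 3852 in KO-2 (log2 fold change 0.14 ± 0.25 (SE), DESeq2 adjusted p = 0.814). Cox6a1 had 3803, 4030.4, 3646 and 3367 in WT-1 to WT-4, against 3061 in KO-1 and 4703 in KO-2 (log2 fold change 0.06 ± 0.21 (SE), DESeq2 adjusted p = 0.903). For these 3 genes, 1 library labelled KO lay within the WT range or on the other side of it from its counterpart. Per length, Cox6a1 and Cox8a were the most abundant nuclear members in WT, at 224 ± 17.9 and 194 ± 36.4 counts per kilobase of exon, scaled to library size as in CPM (SD, n = 4), and Cox7a1 was among the least, at 2.24 ± 0.531.

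**Figure D2:**
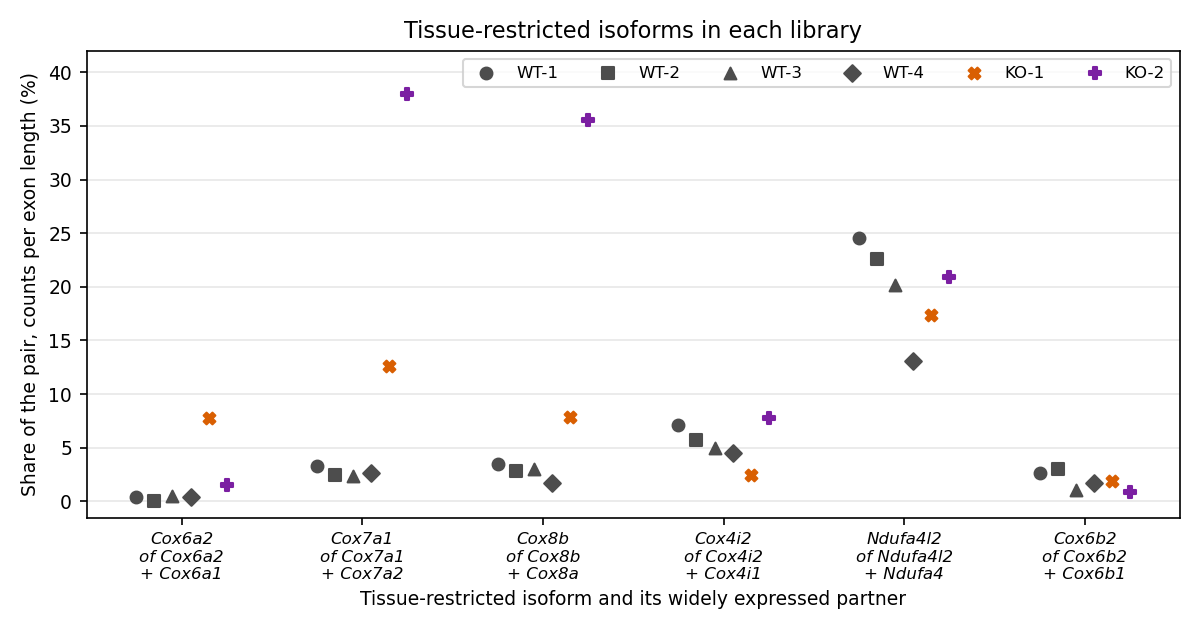
Share of each tissue-restricted isoform in the sum with its widely expressed partner, in percent of counts per exon length, for 6 pairs (x axis) and 6 libraries (grey WT-1 to WT-4, orange KO-1, purple KO-2). Cox7a1 and Cox8b reached 38.0% and 35.6% in KO-2, Cox6a2 reached 7.74% in KO-1, Cox4i2 lay below WT in KO-1 (2.42%), and Ndufa4l2 lay within the WT range.

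Other restricted isoforms did not follow this pattern. Cox4i2, a form tied to low oxygen in the lung, had normalised counts of 122, 129, 102 and 72.05 in WT-1 to WT-4, against 48.6 in KO-1 and 167 in KO-2. Ndufa4l2, a relative of Ndufa4 induced by low oxygen, had 271, 253, 225 and 204 in WT-1 to WT-4, against 199.6 in KO-1 and 249.5 in KO-2. Cox6b2, a testis form, had 93.4, 98.8, 38.9 and 52.2 in WT-1 to WT-4, against 70.6 in KO-1 and 56.5 in KO-2. In none of these 3 did both libraries labelled KO lie on 1 side of WT. Their log2 fold changes were 0.01, -0.09 and -0.15 (DESeq2 adjusted p = 0.994, 0.892 and 0.902), and their partners Cox4i1 and Ndufa4 had 0.14 and -0.06 (adjusted p = 0.743 and 0.925). Cox6b1, the partner of Cox6b2, had 2173, 2054, 2363 and 1891 in WT-1 to WT-4, against 2269.5 in KO-1 and 3985 in KO-2, and KO-2 lay far above WT while KO-1 lay within it (log2 fold change 0.56, DESeq2 adjusted p = 0.113). Cox7b, the partner of Cox7b2, had a log2 fold change of 0.36 (adjusted p = 0.229).

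Markers of cardiac muscle and fat moved beside the muscle forms. Of the 12 cardiac muscle markers, 6 rose (against 5.71% of all genes) and 0 fell (against 4.69%) at a DESeq2 adjusted p under 0.05. Of the 12, 9 had an unadjusted p under 0.05 in either direction, and none was at 0 in every library. Myh6, the atrial and mouse ventricular myosin, had normalised counts of 378, 78.1, 108 and 539 in WT-1 to WT-4, against 10313 in KO-1 and 113 in KO-2, and Mybpc3, a cardiac sarcomere protein, had 23.1, 9.88, 4.99 and 13.6 in WT-1 to WT-4, against 993 in KO-1 and 12.3 in KO-2. KO-1 was the library with high values in both. Of the 12 markers, 11 lay above every WT library in KO-1 (against 31.3% of all genes). In KO-2, 5 lay above (against 32.8%) and 2 below (against 32.3%), and 4 lay above in both libraries (against 17.9%). Of the 9 brown adipocyte markers, 8 were tested and 4 rose (against 5.71% of all genes). All 8 lay above every WT library in KO-2 (against 32.8% of all genes) and 5 did so in KO-1 (against 31.3%). Ucp1, the uncoupling protein of brown fat, had 123, 101, 123 and 0 in WT-1 to WT-4, against 40.2 in KO-1 and 6861 in KO-2, and Cidea, a lipid droplet protein of brown fat, had 347, 309, 308 and 321 in WT-1 to WT-4, against 395 in KO-1 and 2630.4 in KO-2. KO-2 was the library with high values in both. The 8 white adipocyte markers summed to 2765 to 5415 in WT, 5793 in KO-1 and 40462 in KO-2, and the 8 skeletal muscle markers to 171 to 244 in WT, 672 in KO-1 and 203 in KO-2, with Myh1 and Myh2 at 0 everywhere. Of the 5 skeletal markers tested, 0 passed the threshold (against 10.4% of all genes) and 1 had an unadjusted p under 0.05. The list's median log2 ratio was -0.33 in KO-1 and -0.35 in KO-2. The library with the most Cox6a2 was thus the one with the highest cardiac sum, and the library with the most Cox7a1 and Cox8b the one with the highest sums for brown and white fat, and the part of these tissues in the result was not tested.

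In complex V, 2 of 17 genes rose (11.8%, against 5.71% of all genes) and both were widely expressed subunits. Atp5b, the catalytic beta subunit (chr10:128083273-128090391), had normalised counts of 8462, 9499, 8572 and 9051 in WT-1 to WT-4, against 11876 in KO-1 and 12378 in KO-2. Its groups did not overlap (log2 fold change 0.45 ± 0.15 (SE), DESeq2 adjusted p = 0.0263). Atp5f1, a subunit of the peripheral stalk (chr3:105942698-105960099), had 2549, 1995, 2575 and 2543 in WT-1 to WT-4, against 3362 in KO-1 and 3719 in KO-2 (log2 fold change 0.55 ± 0.18 (SE), DESeq2 adjusted p = 0.0249), and 540 bases of its exons overlap Wdr77 and Gm42890 on the opposite strand. Without KO-2 the adjusted p-values in the DESeq2 fit were 0.0734 and 0.169, and neither gene passed in edgeR. Atp5a1, the alpha subunit, lay above every WT library in both libraries labelled KO with a log2 fold change of 0.38 (adjusted p = 0.179 by DESeq2).

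A pair of complex V genes, chosen after their values were seen, lay below every WT library in KO-2. Atp5e, the epsilon subunit of the central stalk, had 3240.3, 2784, 1235 and 1803 in WT-1 to WT-4, against 1659 in KO-1 and 918 in KO-2. Atp5g1, a gene for the proton-carrying c ring, had 1050.1, 1084, 852 and 836 in WT-1 to WT-4, against 813 in KO-1 and 547 in KO-2. Without KO-1 both fell (log2 fold change -1.301 and -0.803, DESeq2 adjusted p = 0.0267 and 0.0116), and with both libraries the adjusted p-values were 0.122 and 0.176. With both libraries kept, Atp5e was also called lower in DESeq2 without WT-3. Of the 17 genes, KO-2 lay below every WT library in 3 (17.6%, against 32.3% of all genes), the third being Atp5g3. It lay above every WT library in 8 (47.1%, against 32.8%). Log2 ratios to the WT mean in KO-2 were 0.62 for Atp5h, 0.48 for Atp5o, 0.18 for Atp5l and 0.01 for Atp5k. Ratios below 0 were also seen, with -0.64 for Atp5g3, -0.22 for Atp5d, -0.20 for Atp5j2, -0.17 for Atp5mpl, -0.15 for Atp5j and -0.11 for Atp5g2. Complex V had the lowest median of the 5 complexes in KO-2, 0.01, beside 0.11 in KO-1, and 0.09 as the median log2 fold change of the groups. Across the 84 nuclear genes, Spearman's rho between exon length and the log2 ratio to the WT mean was 0.29 in KO-1, -0.09 in KO-2 and -0.25 to 0.24 in the WT libraries, which is a description over genes that share a library.

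Mitochondrially encoded transcripts differed between the libraries labelled KO more than between the groups. Of 13 genes, 0 passed an adjusted p under 0.05 in DESeq2 (against 10.4% of all genes) and 0 in edgeR with or without a filter, while 3 had an unadjusted p under 0.05 in DESeq2, mt-Co1 and mt-Nd3 higher and mt-Atp6 lower. Their median log2 fold change was 1.03. The 13 genes took 4.13%, 2.78%, 4.13% and 2.45% of the counts in WT-1 to WT-4 (3.37% ± 0.882, SD, n = 4), 3.16% in KO-1 and 10.9% in KO-2. KO-1 was thus inside the WT range and KO-2 far above it. The mitochondrial rRNA genes mt-Rnr1 and mt-Rnr2 showed the same order, with 0.161% to 0.308% of counts in WT, 0.217% in KO-1 and 0.791% in KO-2, and rRNA counts were 5.53% to 7.46% of those of the 13 genes in WT, 6.87% in KO-1 and 7.25% in KO-2.

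**Figure D3:**
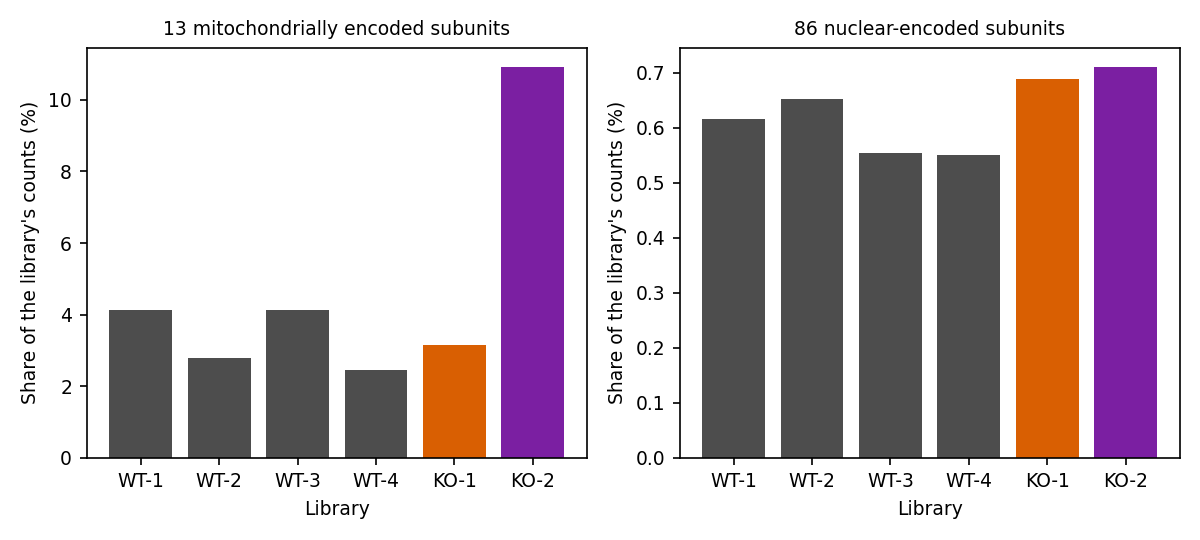
Share of each library's total estimated counts, in percent, taken by the 13 mitochondrially encoded subunits (left) and the 86 nuclear-encoded subunits (right). Bars are single libraries, WT-1 to WT-4 in grey, KO-1 in orange and KO-2 in purple. KO-2 reached 10.9% on the left, and on the right both libraries labelled KO (0.689% and 0.710%) lay a little above every WT bar.

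Of the 13 genes, 7 had at least 1000 counts in every library and held nearly all of the mitochondrial counts. They were mt-Nd1, mt-Nd2, mt-Nd4, mt-Nd5 and mt-Nd6, subunits of the membrane arm of complex I, mt-Cytb, the cytochrome b of complex III, and mt-Co1, the catalytic subunit of complex IV. The most abundant, mt-Co1 (chrM:5328-6872), had normalised counts of 309225, 202390.4, 287599 and 179620.2 in WT-1 to WT-4, against 239566 in KO-1 and 677457 in KO-2 (log2 fold change 0.91 ± 0.34 (SE), DESeq2 adjusted p = 0.066). Next came mt-Cytb (chrM:14145-15288) with 211274, 142385, 209483 and 120036 in WT-1 to WT-4, against 143183 in KO-1 and 595183 in KO-2 (log2 fold change 1.11 ± 0.62 (SE), DESeq2 adjusted p = 0.278). In both, KO-2 exceeded every WT library and KO-1 lay within the WT range. mt-Nd1 (chrM:2751-3707) had 149906, 96618, 149744 and 83090.5 in WT-1 to WT-4, against 88019 in KO-1 and 427989.7 in KO-2 (log2 fold change 1.11 ± 0.66 (SE), DESeq2 adjusted p = 0.33).

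The other 4 of these 7 genes followed the same order. mt-Nd2 had log2 fold changes of -0.31 in KO-1 and 1.92 in KO-2 relative to the WT mean, mt-Nd4 -0.20 and 1.83, and mt-Nd5 -0.22 and 1.74. mt-Nd6, the 1 gene of the 13 on the other strand of the mitochondrial genome (chrM:13552-14070), had normalised counts of 9608, 6437, 8266 and 5887 in WT-1 to WT-4, against 4629 in KO-1 and 26262 in KO-2 (log2 fold change 1.03 ± 0.67 (SE), DESeq2 adjusted p = 0.378), so KO-1 lay below every WT library and KO-2 above. Over the 7 genes, the median log2 ratio to the WT mean was -0.25 in KO-1 and 1.80 in KO-2, against -0.46 to 0.32 in the WT libraries. KO-2 lay above every WT library in 7 of 7 (against 32.8% of all genes) and KO-1 in 0 of 7 (against 31.3%).

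**Figure D4:**
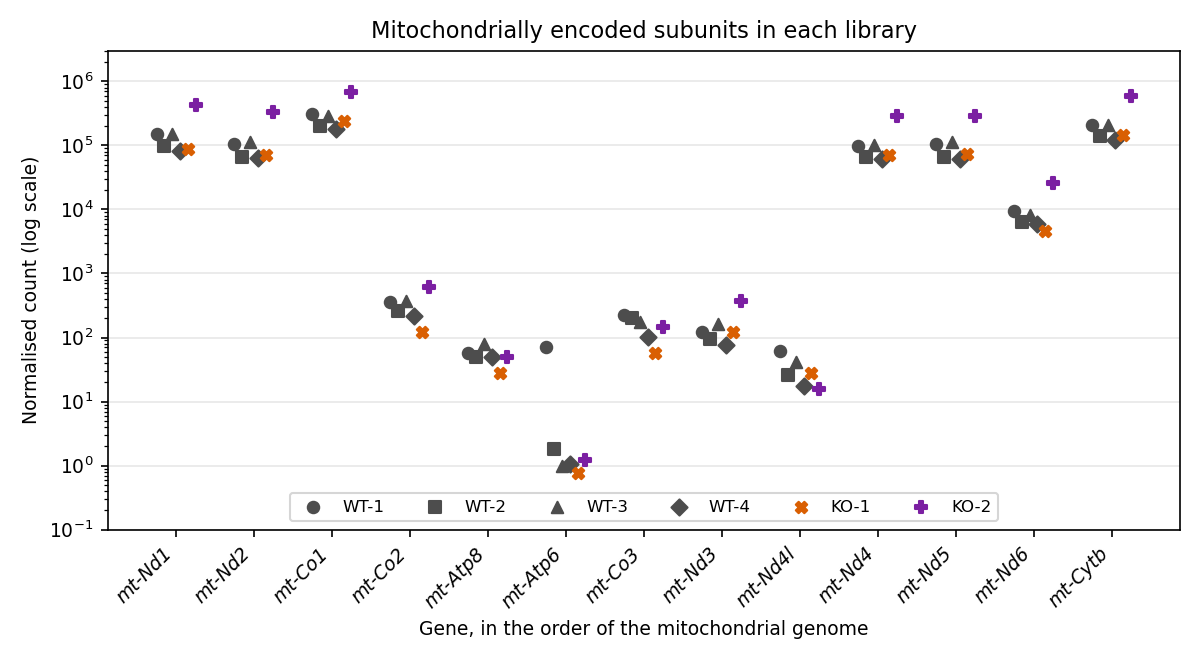
Normalised counts (log scale) of the 13 mitochondrially encoded subunits in the order of the mitochondrial genome, by library (grey WT-1 to WT-4, orange KO-1, purple KO-2). The 7 genes at the top have KO-2 above every WT library, and a run of 6 adjacent genes from mt-Co2 to mt-Nd4l lies below them in all libraries.

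The remaining 6 genes, mt-Co2, mt-Atp8, mt-Atp6, mt-Co3, mt-Nd3 and mt-Nd4l, are consecutive protein-coding genes at chrM:7013-10173 and had 1 to 503 counts in a library. Together they made up 0.00163% to 0.00499% of the counts, while their neighbours mt-Co1 and mt-Nd4 had 172025 to 551153 and 57778 to 234849. Nuclear copies that the annotation lists on chromosome 1 matched 5 of the 6 closely: 99.5% of the words of 50 bases in mt-Co2 also occurred in Gm28661, 99.5% of those in mt-Atp6 in Gm10925, 99.9% of those in mt-Co3 in Gm28437, 98.0% of those in mt-Nd3 in Gm28438 and 98.8% of those in mt-Nd4l in Gm10222. For mt-Co1 and mt-Nd4, the shares were 28.7% (Gm29216) and 62.2% (Gm28439). No copy was matched to mt-Atp8. The copies, those of mt-Co1 and mt-Nd4 included, took 0.00461% to 0.00827% of counts in WT, 0.00111% in KO-1 and 0.00350% in KO-2. This was far less than the 7 abundant genes. The 6 genes themselves took 0.00199% to 0.00373% in WT, 0.00163% in KO-1 and 0.00499% in KO-2. The copies thus held more counts than the 6 genes in every WT library and fewer in both libraries labelled KO. Values of these 6 genes are therefore uncertain as levels of the mitochondrial transcript, and the part of the copies was not tested.

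Within this limit, the 6 genes did not move as 1 block. mt-Co2 had normalised counts of 355, 259, 378 and 219 in WT-1 to WT-4, against 124 in KO-1 and 618 in KO-2, and mt-Nd3 had 124, 95.2, 165 and 75.2 in WT-1 to WT-4, against 119.9 in KO-1 and 370.0 in KO-2, so KO-2 was the highest library in both. mt-Co3 had 225, 203, 177 and 101 in WT-1 to WT-4, against 56.9 in KO-1 and 149 in KO-2. mt-Atp8 had 57.1, 49.4, 79.9 and 50.1 in WT-1 to WT-4, against 28.1 in KO-1 and 50.4 in KO-2, and mt-Nd4l 61.5, 26.04, 41.9 and 17.8 in WT-1 to WT-4, against 28.1 in KO-1 and 15.98 in KO-2. In those 3 genes KO-2 did not exceed the WT range, unlike in the 7 abundant genes. mt-Atp6 had 64 counts in WT-1 and 1 or 2 in every other library, so that its log2 fold change of -4.25 (adjusted p = 0.119 by DESeq2) rests on WT-1. The log2 fold changes were 0.29 for mt-Co2, 1.09 for mt-Nd3, -0.79 for mt-Co3, -0.61 for mt-Atp8 and -0.72 for mt-Nd4l (DESeq2 adjusted p = 0.79, 0.111, 0.27, 0.493 and 0.575).

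The direction of the mitochondrial set depended on which library stood for the KO group. Without KO-1, the median log2 fold change of the 13 genes was 1.69. The 7 abundant genes ran from 1.47 (mt-Co1) to 1.92 (mt-Nd2), with 1.03 for mt-Co2 and 1.69 for mt-Nd3. mt-Atp6, mt-Atp8, mt-Co3 and mt-Nd4l had values below 0 in that fit. Without KO-2, the median was -0.38, which was the value of mt-Nd4l, a gene of uncertain level as given above. The 7 abundant genes then ran from -0.69 (mt-Nd6) to -0.02 (mt-Co1). Among the other genes of uncertain level, mt-Co2 had -1.28, mt-Co3 -1.62 and mt-Nd3 0.07. Nuclear and mitochondrial sets therefore did not keep 1 proportion: there were 6.70, 4.27, 7.45 and 4.46 mitochondrial counts per nuclear-set count in WT-1 to WT-4, 4.58 in KO-1 and 15.4 in KO-2. KO-2 was also the library with the highest sums of brown adipocyte, white adipocyte and red blood cell markers. Of the 5 red blood cell markers, 4 were tested and rose (against 5.71% of all genes). The 5 markers summed to 859 to 5989.6 in WT, 11076 in KO-1 and 61684 in KO-2. The part of these cells in the mitochondrial share was not tested.

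Other lists of mitochondrial genes set the subunits beside their pathway. Fatty acid oxidation had the most changes, with 11 of 15 genes higher (against 5.71% of all genes) and 0 lower (against 4.69%), with 12 of the list at an unadjusted p under 0.05 and a median log2 fold change of 0.77. Cpt1b, the muscle carnitine palmitoyltransferase that brings acyl groups towards the matrix, had normalised counts of 111, 23.3, 14.98 and 13.6 in WT-1 to WT-4, against 263 in KO-1 and 857 in KO-2. Hadhb, the thiolase part of the trifunctional protein, had 1182, 967, 975 and 1072 in WT-1 to WT-4, against 1584 in KO-1 and 2699 in KO-2 (log2 fold change 1.03 ± 0.23 (SE), DESeq2 adjusted p = 0.000381). Acadl, an acyl-CoA dehydrogenase, had 1561, 1631, 2093 and 1883 in WT-1 to WT-4, against 2528 in KO-1 and 6551 in KO-2 (log2 fold change 1.34 ± 0.31 (SE), DESeq2 adjusted p = 0.000417). Etfdh, which passes electrons from these dehydrogenases to ubiquinone, had a log2 fold change of 0.91 (adjusted p = 0.00111 by DESeq2). In all 4 genes both libraries labelled KO lay above every WT library, KO-2 furthest. KO-2 was also the library with the highest brown adipocyte sum (14803) and KO-1 that with the highest cardiac sum (30585), and the part of these tissues in the list was not tested.

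In the tricarboxylic acid cycle, which feeds complexes I and II, 5 of 13 genes rose (against 5.71% of all genes) and 0 fell (against 4.69%), with 11 of the list at an unadjusted p under 0.05, with a median of 0.50 and all 13 values above 0. Dld, the shared dihydrolipoamide dehydrogenase, rose with a log2 fold change of 0.76 (adjusted p = 0.00432 by DESeq2) and Idh3a, a subunit of isocitrate dehydrogenase, with 0.73 (adjusted p = 0.0138). Of 10 biogenesis regulators, 9 were tested, 2 rose (against 5.71%) and 0 fell (against 4.69%), with 5 of the list at an unadjusted p under 0.05. Ppargc1a, a coactivator of mitochondrial genes, had 129, 116, 125 and 117 in WT-1 to WT-4, against 225 in KO-1 and 425 in KO-2 (log2 fold change 1.42 ± 0.31 (SE), DESeq2 adjusted p = 0.000233), and Esrrg, an oestrogen-related receptor, 20.9, 22.5, 11.98 and 15.7 in WT-1 to WT-4, against 89.5 in KO-1 and 61.5 in KO-2 (log2 fold change 2.09 ± 0.53 (SE), DESeq2 adjusted p = 0.0019). Ppargc1a was higher in KO-2 than in KO-1 and Esrrg the reverse, and both exceeded WT in each. Without KO-2, Acadl, Cpt1b, Dld, Etfdh, Idh3a and Ppargc1a missed the threshold, and without KO-1 Esrrg did. Idh3a also missed it without WT-1 and without WT-2, and Cpt1b, chosen after its values were seen, without WT-2. In edgeR, Idh3a missed the threshold with and without the filter on low counts (edgeR adjusted p = 0.0733 and 0.0711). Acadl missed it in edgeR with that filter (edgeR adjusted p = 0.0521). With the GC trend taken out, Idh3a missed it as well (DESeq2 adjusted p = 0.0577).

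Genes that build and express the chain showed little change. Of 44 assembly factors, Coa5, a factor for complex IV, rose (log2 fold change 0.63 ± 0.17 (SE), DESeq2 adjusted p = 0.00544) and 0 fell (4 at an unadjusted p under 0.05), with a median of 0.06. Of 13 genes for mitochondrial DNA upkeep and transcription, 0 passed (2 at an unadjusted p under 0.05), with a median of 0.10. Of 78 mitochondrial ribosomal proteins, Mrpl15 (log2 fold change 0.83, DESeq2 adjusted p = 0.00246) and Mrpl32 (0.76, adjusted p = 0.0173) rose and Mrpl53 (-1.57, adjusted p = 0.0144) and Mrps24 (-0.78, adjusted p = 0.0336) fell, with a median of -0.03. Without KO-2 Coa5 (adjusted p = 0.0674 in DESeq2), Mrpl32 (0.167) and Mrpl53 (0.296, log2 fold change -0.92) missed the threshold. Mrpl53 had -2.81 without KO-1 and also missed it without WT-1, without WT-2 and in edgeR, and Mrpl32 without WT-2 and in edgeR, while Mrps24 passed in 6 of 17 alternatives. These shares stand beside 5.71% of all genes that rose and 4.69% that fell.

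**Figure D5:**
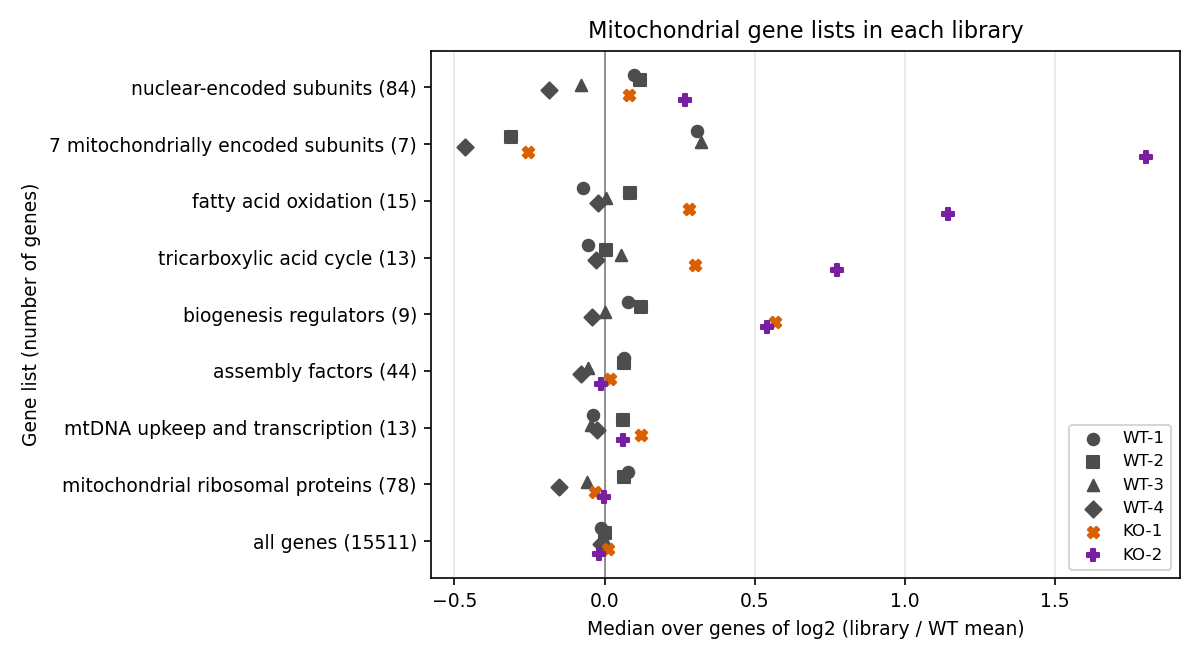
Median over the genes of each list of the log2 ratio to the WT mean (x axis), by library (grey WT-1 to WT-4, orange KO-1, purple KO-2). The number of genes whose normalised counts averaged 10 or more is in parentheses. The 7 abundant mitochondrially encoded genes had a median of 1.80 in KO-2 and -0.25 in KO-1, fatty acid oxidation 1.14 and 0.28, and the nuclear-encoded subunits 0.27 and 0.08.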

How the data were processed

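Bulk RNA-seq was analysed for 6 thoracic aorta libraries, 4 WT and 2 labelled KO. The authors trimmed reads with Trim Galore, aligned them to GRCm38 with HISAT2 and quantified GENCODE M15 genes with StringTie, and deposited unscaled estimated counts for each gene, which are whole numbers and were used as they stood. How coverage became whole numbers, and whether strand was used, is not given in the sources used here. Columns carry codes, and their match to libraries was inferred: 4 columns share 1 code, read as WT, and 2 share another, read as KO.

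DESeq2 1.42.0 (R 4.3.3) compared the groups over all genes with a Wald test on group, Benjamini-Hochberg adjustment, an adjusted p threshold of 0.05 and, for called genes, a fold above 2. Normalised counts are counts over size factors, and library ratios used a pseudocount of 0.5. Medians covered genes averaging at least 10. Gene positions and exon lengths came from GENCODE M21, which matched 52489 of 52636 identifiers without version. Precision is set by depths of 19650983 to 28860598 counts, and 95% Wilson intervals of count shares cover counting error only. The tests were tested on simulated data. Members and lists were chosen with earlier results of these data known. Named were all mitochondrial members, the isoform pairs, up to 3 members per complex past the adjusted p, called members, the targeted genes and up to 3 genes per other list by adjusted p, of which 1 is not reported here. Other genes were chosen after their values were seen. Alternatives were edgeR 4.0.16 with or without filtering low counts (10 counts in 2 libraries for the DESeq2 filter), other scalings, length and GC trends, a test against a 2-fold change, a replicate block and leaving out each library. After the data were seen, fits on the 7 abundant mitochondrial genes and without Cox6a2, Cox7a1 and Cox8b were added.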

Additional observations from a re-analysis of the deposited data

Results flagged for a closer look

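In a group of 4, a WT library was set apart when its gap to the nearest other exceeded the 95% critical value of Dixon's test. Of 116 results checked, 6 were found, where chance alone gives about 1 in 20, or 5.8. The normalised count of mt-Atp6 was 70.3 in WT-1, far above the other WT libraries. Ndufa4 had 1709 in WT-4, above the others. Atp5f1 had 1995 in WT-2, below the others. Atp5j and Atp5o had 1376 and 1492 in WT-4, both below the others. The share of Cox6a2 in its pair with Cox6a1 was 0 in WT-2.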

How the results depend on the processing

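Against 9 nuclear genes past the adjusted p, there were 4 in edgeR with a filter on low counts (3 of them among the 9), 3 in edgeR without one (2 among the 9, Cox6a2 being the other in both), 15 with total counts of nuclear genes as size factors, 4 with the GC trend taken out and 1 in the test against a 2-fold change, where 1 was also called. Without Cox6a2, Cox7a1 and Cox8b, a choice made after seeing the data, 0 nuclear genes were called. Of the mitochondrial genes, 1 was past the adjusted p with total counts, 1 was past it and called with total counts of nuclear genes, and with the exon length trend taken out 2 were past it and 1 was called. Over all genes 962 were called, against 633 in edgeR with the filter and 114 in the test against a 2-fold change. With total counts of nuclear genes the median of all genes shifted by 0.0988 (log2). Leaving out each library in turn gave 2 to 21 nuclear genes past the adjusted p and 1 to 6 called, 0 to 9 mitochondrial genes past it and 0 to 9 called, a mitochondrial median of -0.38 to 1.69, 636 to 1284 genes called over all, and a log2 fold change of mt-Co2 of -1.28 to 1.03, where without KO-2 the sign turned. The lowest nuclear and mitochondrial medians came without KO-2 and the highest without KO-1. The cause of these differences was not tested.

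The groups share 2 replicate numbers, and deviations of the same-numbered libraries correlated at -0.0867 (number 1) and 0.014 (number 2). With 2 libraries labelled KO, their deviations from the group mean mirror each other, so these correlations cannot show or exclude a pairing. With the replicate block, 4 nuclear genes rose (Cox6a2, Cox7a1, Cox8b and Uqcrb) and 2 fell (Atp5e and Ndufa2), 6 in all past the adjusted p with 5 called, so 3 of the 9 were kept. Ndufs1, Sdha, Uqcrc2, Cox5a, Atp5b and Atp5f1 were not past it, nor were Hadhb, Dld, Etfdh, Idh3a, Ppargc1a, Esrrg, Coa5, Mrpl15 and Mrpl32. In the same fit 0 mitochondrial genes were called, and 561 genes were called over all.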
